A study of Mus musculus with 16 samples.

Results

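The miR-181 family was followed in sciatic nerves of mice that lack Dicer in Schwann cells. Its members were taken as the rows of the scanner files whose miRNA name is mmu-miR-181a, mmu-miR-181b, mmu-miR-181c or mmu-miR-181d (mmu- stands for mouse and is left out from here on). All 4 were found, each with 2 probes of 10 spots, so that 8 probes and 80 spots of the family were read among 1857 probes and 13000 spots of 650 miRNA names. All 4 members were among the 281 miRNAs that counted as expressed, meaning that in 1 group or more a share of 0.5 or more of the arrays showed them as detected by the scanner software, Agilent Feature Extraction. The software detected each member on all 16 arrays.

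The series compared Dicer1 fl/fl Dhh-Cre+ mice (here mutants) with Dicer1 wt/fl Dhh-Cre+ mice (here controls), at embryonic day 17 (E17) and at postnatal day 4 (p4), with 4 nerve samples per group and each sample on its own array. All mice came from crossing Dhh-Cre+ Dicer wt/flox with Dicer flox/flox animals, carry the strain label Dicer1tm1Bdh/J, and received no further treatment. The controls thus carried the Cre transgene and 1 floxed Dicer1 allele as well. Cre was driven by the desert hedgehog (Dhh) promoter, which is active in Schwann cells from their precursor stage, while the other cells of the nerve (neurons' axons, fibroblasts, endothelium, blood cells) kept Dicer, and their miRNAs are part of every value below. The array measured no Dicer1 mRNA.

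Dicer cuts hairpin precursors into mature miRNAs, which guide silencing complexes to messenger RNAs mainly through their seed, the bases near the 5′ end. The miR-181 family is conserved among vertebrates and is best known from lymphocytes, where miR-181a tunes the sensitivity of T-cell receptor signaling. It is also expressed in neural tissue and vascular cells. A miRNA made before Dicer was lost can persist, because mature miRNAs are often stable.

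The mature sequences are shown because the members differ so little that their unlike behavior has to be read against them. They were taken from RefSeq (GRCm38.p6), in which all 4 members were found as the strand from the 5′ arm, and are written 5′ to 3′ with the seed, bases 2 to 8, in capitals.
miR-181a: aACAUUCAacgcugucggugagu
miR-181b: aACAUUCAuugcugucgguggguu
miR-181c: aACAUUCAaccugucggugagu
miR-181d: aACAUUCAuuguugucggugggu

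All 4 members shared the seed ACAUUCA, and no other of the 1679 mature mouse names searched had it. Counted from the 5′ end, miR-181b differed from miR-181a by A9U, C10U and A21G and was 1 base longer. miR-181d differed from miR-181b by C12U and was 1 base shorter. miR-181c was miR-181a without the base at position 11. The sequences of the array's probes were not used here, so how far a probe of 1 member also bound another was not tested.

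In the same reference, 6 hairpins at 3 loci carried the members. Mir181a-1 (chr1:137966455-137966541) and Mir181b-1 (chr1:137966639-137966718) lay on the plus strand 97 bases apart, and no other gene of the table overlapped them. Mir181a-2 (chr2:38852735-38852810) and Mir181b-2 (chr2:38853830-38853918), also on the plus strand, lay 1019 bases apart within the spans of the protein-coding gene Nr6a1 and the long noncoding RNA Nr6a1os. Mir181d (chr8:84178716-84178787) and Mir181c (chr8:84178873-84178961) lay on the minus strand 85 bases apart, with no other gene of the table over them. miR-181a and miR-181b each had 2 hairpins with the same mature sequence, so the array could not tell chromosome 1 from chromosome 2. Which genome build the array was designed on is not given in the sources used here.

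Before the results, the arrays themselves have to be described. Summed over all miRNAs, the background-subtracted signal of an E17 array was 36495 to 60374 scanner units for controls and 39097 to 50827 for mutants, and that of a p4 array 122860 to 154076 and 56841 to 83630. Between 197 and 260 miRNAs were detected per array and no spot was saturated. By their headers, 1 slide held the 8 E17 arrays and the other the 8 p4 arrays. Age and slide therefore cannot be told apart, whereas each slide held 4 arrays of either genotype. Replicate 3 of the E17 mutants had the highest background, with a median of 55 against 20 to 39 on the other arrays. In these bulk samples, fewer cells of a type and less RNA per cell cannot be told apart.

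miR-181b was the member with the largest fall in mutants at both ages. Values are log2 median spot signals, quantile normalized across arrays, for the member's brightest probe, and levels of different probes cannot be compared. In controls miR-181b stood at 7.27, 7.14, 7.14 and 7.09 at E17 and at 7.40, 7.17, 7.27 and 7.37 at p4. In mutants it stood at 6.77, 6.81, 6.81 and 6.84 at E17 and at 6.61, 6.58, 6.51 and 6.67 at p4. Every mutant array lay below every control array, and the p4 mutants lay below the E17 mutants as well.

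miR-181a, which shares both of its hairpin loci with miR-181b, behaved differently at E17. Its signals were 6.90, 6.85, 6.80 and 6.95 in E17 controls and 6.84, 6.89, 6.88 and 6.89 in E17 mutants, and these ranges overlapped. At p4 the controls had 7.15, 6.99, 7.02 and 7.09 and the mutants 6.85, 6.82, 6.66 and 6.76, without overlap. The p4 controls stood above all other groups, and the remaining groups overlapped with their neighbors in rank.

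miR-181d, the member nearest to miR-181b in sequence, had its group means in the same order as miR-181b, with the p4 controls highest, then the E17 controls, the E17 mutants and the p4 mutants. It was at 6.67, 6.66, 6.62 and 6.70 in controls and 6.55, 6.64, 6.47 and 6.62 in mutants at E17, and at 6.86, 6.62, 6.73 and 6.81 in controls and 6.46, 6.43, 6.39 and 6.45 in mutants at p4. The p4 mutants lay below every other array, and the other 3 groups overlapped with their neighbors.

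miR-181c, encoded 85 bases from miR-181d, had similar levels in the genotypes at each age and lower ones at E17 than at p4 in controls. It was at 6.34, 6.33, 6.36 and 6.43 in controls and 6.38, 6.43, 6.32 and 6.46 in mutants at E17, and at 6.53, 6.47, 6.48 and 6.53 in controls and 6.56, 6.49, 6.46 and 6.43 in mutants at p4. Groups that were neighbors in rank overlapped, while the E17 controls lay below every p4 control array. Its brightest probe was well above background on 2 of 4 arrays in each E17 group and on all 4 in each p4 group, so the E17 values lie close to the limit of detection.

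**Figure D1:**
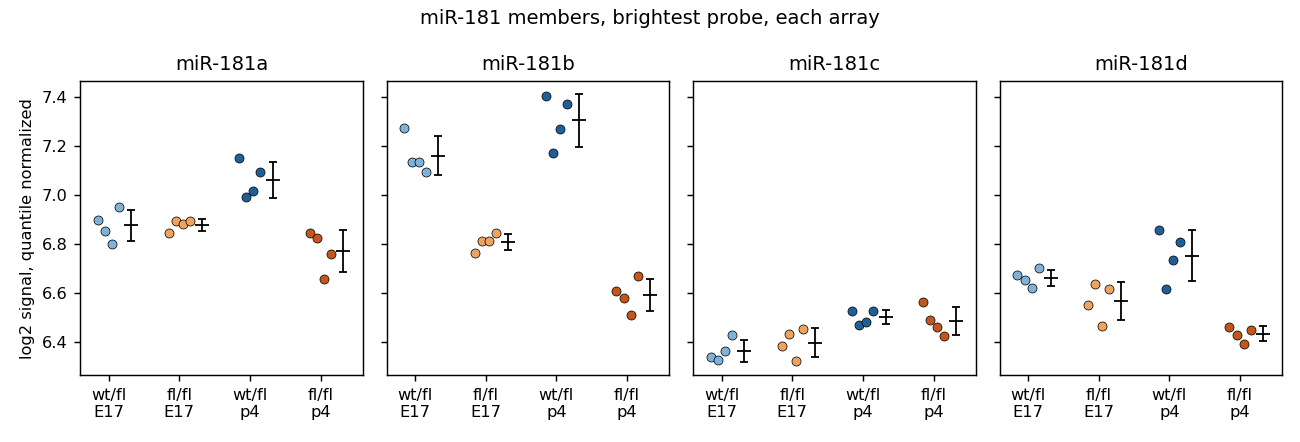
Log2 signal of the brightest probe of each miR-181 member (vertical axis, quantile normalized) on each of the 16 arrays (points) by genotype and age, with the mean and SD of the 4 arrays of a group beside them. The 4 p4 mutant arrays of miR-181b lie between 6.51 and 6.67 and the 4 p4 control arrays between 7.17 and 7.40, while the genotypes of miR-181c overlap at each age. Heights are comparable within a panel and not between panels.

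The comparison of genotypes at p4 asks which miRNAs depend on Dicer in Schwann cells once control nerves have begun to form myelin. By limma, a linear model fitted to all 681 probes of expressed miRNAs, miR-181b was lower in p4 mutants by a log2 difference of -0.71 ± 0.0528 (SE, n = 4 arrays per group; 95% confidence interval -0.82 to -0.60; Benjamini-Hochberg adjusted p = 1.09e-07 over all probes). Its other probe gave -0.60 (adjusted p = 3.18e-06). That probe was well above background on all 4 control arrays and on none of the mutant arrays, which makes the signal at least 1.43-fold lower in mutants by the bound the background sets.

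A probe was called when its adjusted p did not exceed 0.05 and its log2 difference was 0.5 or more in size, and a miRNA when 1 or more of its probes were called and none in the opposite direction. Under this rule 1 of the 4 members, miR-181b, was called lower at p4 and 0 higher. Of all 281 expressed miRNAs, 10.7% were called lower and 10.3% higher. The call on miR-181b was made in each of the 16 repetitions that left out 1 array. Its direction and an adjusted p under the limit were found in all 16 other settings tried, with log2 differences from -1.41 to -0.51.

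miR-181a and miR-181d also fell at p4, by less than the limit of 0.5. For miR-181a the log2 difference was -0.29 ± 0.0466 (limma, adjusted p = 1.76e-04), and the other probe gave -0.19 (adjusted p = 4.73e-04). That other probe was well above background on 2 of 4 control arrays and 0 of 4 mutant arrays, so the background allows no more than a bound of at least 1.01-fold lower. For miR-181d it was -0.32 ± 0.0485 (limma, adjusted p = 1.08e-04), and -0.17 (adjusted p = 2.48e-04) on the other probe, which stayed near background throughout. Counting the adjusted p alone, 3 of 4 members were lower and 0 higher, where 30.2% of all expressed miRNAs were lower and 29.5% higher. At an unadjusted limma p under 0.05 the counts were also 3 and 0, beside 33.5% and 35.2%. The same 3 members had brightest-probe signals that did not overlap between the genotypes, as did 24.2% of all expressed miRNAs in this direction.

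The fall of miR-181a depended on how 1 spot was treated. On replicate 3 of the p4 mutants, 1 of the 10 spots of its brightest probe read 12.93 on the log2 scale and had been marked as an outlier by the scanner software. Without that spot the array's value was 6.66, and with all marked spots kept it was 7.28. With marked spots kept on all arrays, the difference was -0.13 (limma, adjusted p = 0.328), and with the authors' deposited intensities, which average over all spots, it was -0.10 (adjusted p = 0.50). In the 16 repetitions that left out 1 array, among them the one without this array, it was -0.32 to -0.25 (limma, highest adjusted p = 7.77e-04). The fall of miR-181d did not depend on marked spots (-0.32 with them kept), but it became 0.0099 (adjusted p = 0.944) when arrays were scaled to the upper quartile of the probes detected on all arrays. That scaling moved the median of all probes by 0.56, and miR-181a stood at -0.041 under it.

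For miR-181c limma found no difference at p4. The log2 difference was -0.017, with a 95% confidence interval from -0.10 to 0.06 (limma, adjusted p = 0.733), and its other probe, near background on all arrays, gave -0.05 (adjusted p = 0.320). On this scale the interval leaves room for changes of up to 0.10. Among the brightest probes it lies apart from those of the other 3 members, the nearest of which ended at -0.19. On the other probes the interval of miR-181c was -0.14 to 0.035. There it overlapped those of miR-181a (-0.27 to -0.12) and miR-181d (-0.23 to -0.11), and not that of miR-181b (-0.73 to -0.46). The scale contains the background, so the interval does not bound the change in amount. Background-subtracted, miR-181c in mutants was at 62.0% of the control signal (exact permutation test, p = 0.0286, adjusted 0.0508). As a share of the summed signal of its array it was at 121% of controls (exact permutation test, p = 0.171). Under the upper-quartile scaling miR-181c was higher by 0.38 (adjusted p = 0.0122), which is less than the shift of the median of all probes.

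At E17, before myelin formation begins, 1 of 4 members differed between the genotypes by the adjusted p. miR-181b was lower in mutants by -0.35 ± 0.0528 (95% confidence interval -0.46 to -0.24; limma, adjusted p = 0.00150), and its other probe by -0.24 (adjusted p = 0.0231). This was below the limit of 0.5, so 0 of 4 members were called, by limma and by the methods' t-test, the per-probe test that the study's methods name, with or without Benjamini-Hochberg adjustment, where 2.49% of all expressed miRNAs were called lower and 3.56% higher by limma. At an unadjusted limma p under 0.05, 1 member was lower and 0 higher, beside 20.3% and 19.2%. By the adjusted p alone 8.54% of all expressed miRNAs were lower, and in 13.9% the arrays did not overlap in this direction, as for miR-181b. Without replicate 3 of the mutants, the array with the high background, the difference of miR-181b was -0.36 (adjusted p = 0.00533).

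The fall of miR-181b at E17 depended on the scaling of the arrays. It was -0.18 (limma, adjusted p = 0.380) with no normalization between arrays and -0.17 (adjusted p = 0.264) with the upper-quartile scaling, and these settings moved the median of all probes by 0.25 and 0.26. For miR-181a the log2 difference at E17 was 0.00 (95% confidence interval -0.10 to 0.10; limma, adjusted p = 0.971). For miR-181c it was 0.03 (-0.05 to 0.11; adjusted p = 0.619), and for miR-181d -0.09 (-0.20 to 0.01; adjusted p = 0.230).

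The change from E17 to p4 in control nerves was small for all members. By the adjusted p, 4 of 4 members were higher at p4 on at least 1 probe, where 31.7% of all expressed miRNAs were higher and 23.1% lower. By limma and by the methods' t-test 0 were called, where limma called 8.19% of all expressed miRNAs higher and 12.1% lower. At an unadjusted limma p under 0.05, 4 members were higher and 0 lower, beside 34.5% and 27.8%. The arrays of the brightest probe did not overlap for 2 members, miR-181a and miR-181c, in the higher direction, beside 23.5%, and for 0 in the lower, beside 19.9%. miR-181a was higher by 0.19 ± 0.0466 (limma, adjusted p = 0.00603), miR-181b by 0.14 ± 0.0528 (adjusted p = 0.0438) and miR-181c by 0.14 ± 0.0369 (adjusted p = 0.00929). For miR-181d the brightest probe gave 0.09 (adjusted p = 0.159) and the other, which stayed near background throughout, 0.10 (adjusted p = 0.0128).

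These increases in controls were not stable. With the upper-quartile scaling, which moved the median of all probes by -0.64, all 4 differences turned negative (-0.19, -0.087, -0.40 and -0.36 for miR-181a, miR-181b, miR-181c and miR-181d). For miR-181b the adjusted p exceeded 0.05 in 11 of 16 repetitions without 1 array (highest 0.140), and it was at or below 0.05 only without E17 control replicate 1, E17 mutant replicate 1, p4 control replicate 2, or p4 mutant replicates 3 or 4. With the authors' deposited intensities the differences of miR-181a, miR-181b and miR-181c were 0.18, 0.18 and 0.12, with adjusted p of 0.200, 0.0776 and 0.132. With marked spots kept, miR-181a was at 0.17 (adjusted p = 0.200) and miR-181b at 0.14 (adjusted p = 0.0541).

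In mutant nerves, miR-181b decreased from E17 to p4 by a log2 difference of -0.22 ± 0.0528 (limma, adjusted p = 0.00803; other probe -0.14, adjusted p = 0.110). No normalization between arrays gave -0.074 (adjusted p = 0.996) for it. By the adjusted p, 1 of 4 members was lower and 0 higher, where 17.8% of all expressed miRNAs were lower and 24.6% higher. By limma and by the methods' t-test 0 of 4 members were called, where limma called 7.47% of all expressed miRNAs lower and 3.2% higher. At an unadjusted limma p under 0.05, 3 were lower and 1, miR-181c, higher, beside 23.8% and 31.7%. The arrays did not overlap for miR-181b and miR-181d, 2 of 4 members lower, beside 17.4%, and for 0 higher, beside 12.5%. The values of the others were -0.11 for miR-181a (adjusted p = 0.111), 0.09 for miR-181c (adjusted p = 0.102) and -0.13 for miR-181d (adjusted p = 0.0532).

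**Figure D2:**
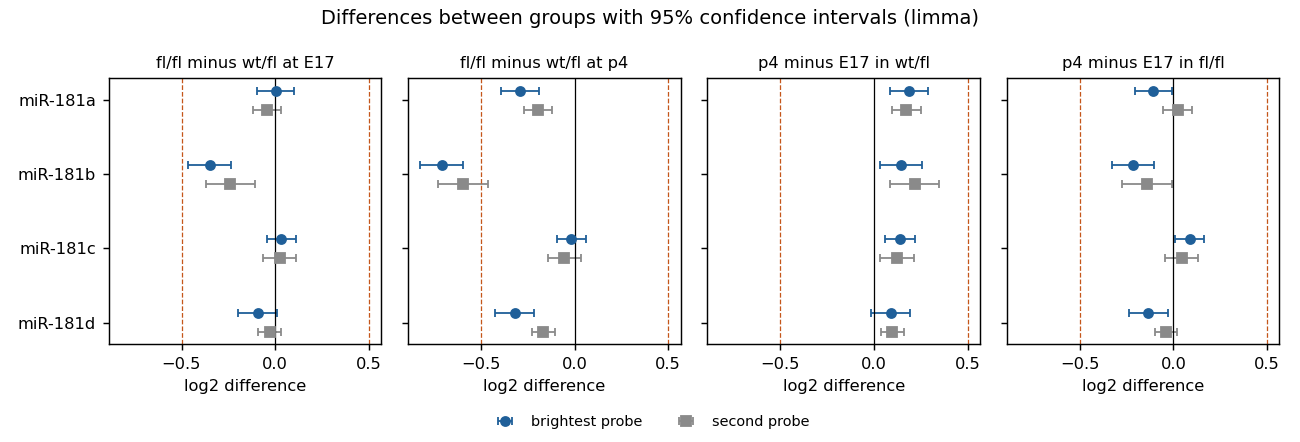
Log2 differences between groups (horizontal axis) with 95% confidence intervals from limma, n = 4 arrays per group, for the brightest and the other probe of each member. Dashed lines mark the limit of 0.5 in size. Both probes of miR-181b pass it at p4 (-0.71 and -0.60), and no other probe of the family does in the 4 comparisons drawn.

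Whether the effect of Dicer loss differed between the ages was tested directly, as the difference between the genotype effects at p4 and at E17. It was -0.36 ± 0.0746 for miR-181b (limma, adjusted p = 0.00478), -0.29 ± 0.0660 for miR-181a (adjusted p = 0.00763), -0.23 ± 0.0686 for miR-181d (adjusted p = 0.0406) and -0.05 for miR-181c (95% confidence interval -0.16 to 0.06, adjusted p = 0.609). By the adjusted p, 3 of 4 members had the larger fall at p4, where 15.3% of all expressed miRNAs had a lower and 6.05% a higher difference. At an unadjusted limma p under 0.05 these were the same 3, beside 20.6% lower and 18.5% higher. With the limit of 0.5 as well, 0 were called, where 6.76% were called lower and 2.85% higher. With the upper-quartile scaling the adjusted p of all members exceeded 0.05, and for miR-181b the value was -0.40 (adjusted p = 0.167), as large as before. For miR-181a the value became -0.13 with the marked spots kept (adjusted p = 0.617). For miR-181d the adjusted p stayed at or below 0.05 only without E17 control replicate 4, E17 mutant replicate 3 or p4 control replicate 2, and rose to as much as 0.0864 without any of the other 13 arrays. The ages lay on different slides, so age and slide cannot be told apart here either.

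The members can also be compared with each other on the same array. This asks whether their log2 signals changed equally and is untouched by any scaling that adds the same log2 value to a whole array. The signals contain the background, so an equal change in amount gives a smaller log2 change on a dim probe. Unequal changes below are therefore changes in signal, and whether the amounts changed unequally was not tested by them. In all, 6 pairs were tested in 4 comparisons by exact two-sided permutation tests over 70 assignments of the arrays, whose smallest p is 0.0286. Benjamini-Hochberg adjustment over the 24 tests made it 0.0457, because many of the tests reached that smallest p. The pairs share members and the comparisons share groups, so the 24 tests are not independent. At p4, miR-181b fell by 0.42 more than miR-181a on the log2 scale (exact p = 0.0286, adjusted 0.0457), although both come from the same 2 loci. miR-181b minus miR-181a was 0.25, 0.18, 0.25 and 0.28 on the 4 control arrays and -0.24, -0.24, -0.14 and -0.09 on the 4 mutant arrays. These are differences between 2 probes, so their sign does not say which miRNA was more abundant, and only their change between groups is read.

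The pair on chromosome 8 separated in the same manner. miR-181d minus miR-181c was 0.33, 0.14, 0.25 and 0.28 on p4 control arrays and -0.10, -0.06, -0.07 and 0.03 on p4 mutant arrays, a change of -0.30 (exact p = 0.0286, adjusted 0.0457). miR-181b and miR-181d, which differ by 1 substitution and 1 base of length, also changed unequally, with a change of 0.39 in miR-181d minus miR-181b (exact p = 0.0286, adjusted 0.0457). The arrays of the 2 genotypes did not overlap in any of these 3 pairs.

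Of the other pairs at p4, miR-181c minus miR-181b changed by 0.69 and miR-181c minus miR-181a by 0.27 (each exact p = 0.0286, adjusted 0.0457). The remaining pair, miR-181d minus miR-181a, changed by -0.03 (exact p = 0.457). The pair tests left out marked spots, among them the outlying spot of miR-181a on p4 mutant replicate 3. With marked spots kept, that array had miR-181a at 7.28 and miR-181c at 6.44, in place of 6.66 and 6.46. No pair test was run with marked spots kept, so how far the changes against miR-181a depend on that spot was not tested. The 5 changes that passed at p4 kept the same p in each repetition that left out 1 array. The genotypes did not overlap in these 5 pairs, and leaving out an array cannot make them overlap. The p was therefore bound to stay at or near the smallest possible and adds no support of its own. The change itself ranged from 0.24 to 0.29 for miR-181c minus miR-181a, the smallest of the 5. For miR-181c minus miR-181b, the largest, it ranged from 0.67 to 0.74.

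The unequal change was already present at E17 in 5 of 6 pairs (each exact p = 0.0286, adjusted 0.0457). There miR-181b fell by 0.35 more than miR-181a, the difference being 0.38, 0.28, 0.33 and 0.14 on control arrays and -0.08, -0.08, -0.07 and -0.05 on mutant arrays. miR-181d minus miR-181c changed by -0.13, from 0.33, 0.33, 0.26 and 0.27 to 0.17, 0.21, 0.15 and 0.16. The changes of miR-181d minus miR-181a (-0.10) and of miR-181d minus miR-181b (0.26) had an exact p of 0.0571 without some arrays, namely any E17 control or mutant replicate 3 for the former and control replicate 1 or mutant replicate 2 for the latter. The genotypes did not overlap in these pairs on all arrays, so the higher p does not come from overlap. With no normalization between arrays, miR-181d minus miR-181a changed by -0.027 (exact p = 0.429).

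Between the ages in controls, 1 of 6 pairs changed unequally, with miR-181d minus miR-181a at -0.10 (exact p = 0.0286, adjusted 0.0457), and its exact p was 0.0571 without p4 control replicate 2. In mutants 4 of 6 pairs did, with miR-181c gaining 0.30 on miR-181b, 0.19 on miR-181a and 0.22 on miR-181d, and miR-181b losing 0.11 against miR-181a (each exact p = 0.0286, adjusted 0.0457). Of these, the changes of miR-181c against miR-181b and of miR-181b against miR-181a had an exact p of 0.0571 without any 1 of the E17 mutant arrays. The ages did not overlap in these pairs or in the control pair, so the higher p does not come from overlap. With no normalization between arrays, the change of miR-181c against miR-181a was 0.082 (exact p = 0.143).

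**Figure D3:**
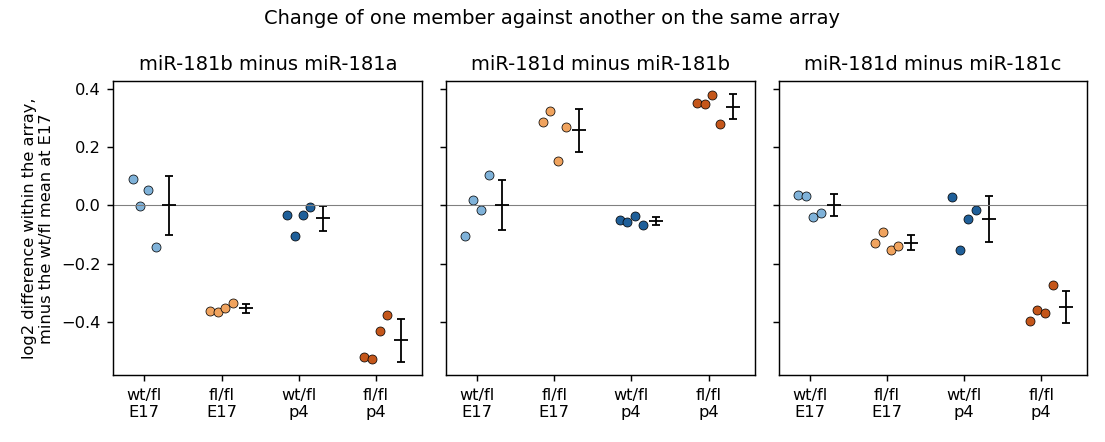
Difference in log2 signal between 2 members on the same array (vertical axis), set to 0 at the mean of the E17 controls, for 3 pairs. Points are arrays, and the bars beside them give mean and SD of the 4 arrays of a group. The mutant arrays are set apart from the control arrays of the same age in each panel, by -0.42 at p4 for miR-181b minus miR-181a, 0.39 for miR-181d minus miR-181b and -0.30 for miR-181d minus miR-181c.

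On the background-subtracted scale of the scanner software, without normalization, the falls were larger. miR-181b had 165, 145, 164 and 148 scanner units on the p4 control arrays and 29.8, 34.8, 26.7 and 36.8 on the p4 mutant arrays, so that the geometric mean of the mutants was 20.5% of that of the controls (exact two-sided permutation test, p = 0.0286, the smallest possible). The mutant value was 40.7% of the control value for miR-181a, 34.2% for miR-181d and 62.0% for miR-181c, each with the same exact p. Adjusted over 16 such tests of members and comparisons, this p became 0.0508, so none passed after adjustment, miR-181b included. The signal summed over all miRNAs was lower too, at 51.3%, so that miR-181c stood above that mark and the other 3 members below it.

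As a share of the summed signal of its array, miR-181b took 0.128%, 0.0941%, 0.124% and 0.120% in p4 controls and 0.0458%, 0.0416%, 0.0469% and 0.0510% in p4 mutants. These ranges did not overlap, and the mutant share was 39.9% of the control share (exact permutation test, p = 0.0286). miR-181d was at 66.7% of the control share (exact p = 0.0286), miR-181a at 79.3% (exact p = 0.0571) and miR-181c at 121% (exact p = 0.171). With 16 such tests of shares over members and comparisons, the adjusted p of the smallest was 0.0914, so none passed after adjustment.

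At E17 the share of miR-181b was 0.138%, 0.116%, 0.113% and 0.130% in controls and 0.0663%, 0.0871%, 0.0903% and 0.0833% in mutants, again without overlap (65.6% of the control share; exact permutation test, p = 0.0286, adjusted 0.0914). From E17 to p4 in controls, the background-subtracted signals rose to 254% for miR-181a, 258% for miR-181b, 265% for miR-181c and 232% for miR-181d. Each had an exact p of 0.0286 (permutation test, adjusted 0.0508). The sum over all miRNAs rose to 276%. As shares, the 4 members stood at 92.0%, 93.5%, 95.9% and 84.2% of their E17 levels, with exact p from 0.171 to 0.857.

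The 4 members together held 0.281% ± 0.0323 (SD, n = 4) of the summed signal in controls and 0.243% ± 0.0268 in mutants at E17, and 0.258% ± 0.0265 and 0.166% ± 0.0155 at p4. The p4 ranges, 0.220% to 0.283% and 0.150% to 0.187%, did not overlap. This sum adds the brightness of different probes and is no count of molecules. The lower share in p4 mutants, a log2 difference of -0.63, became 0.083 when the linear median signals of the brightest probes were used instead, which contain the background by construction.

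**Figure D4:**
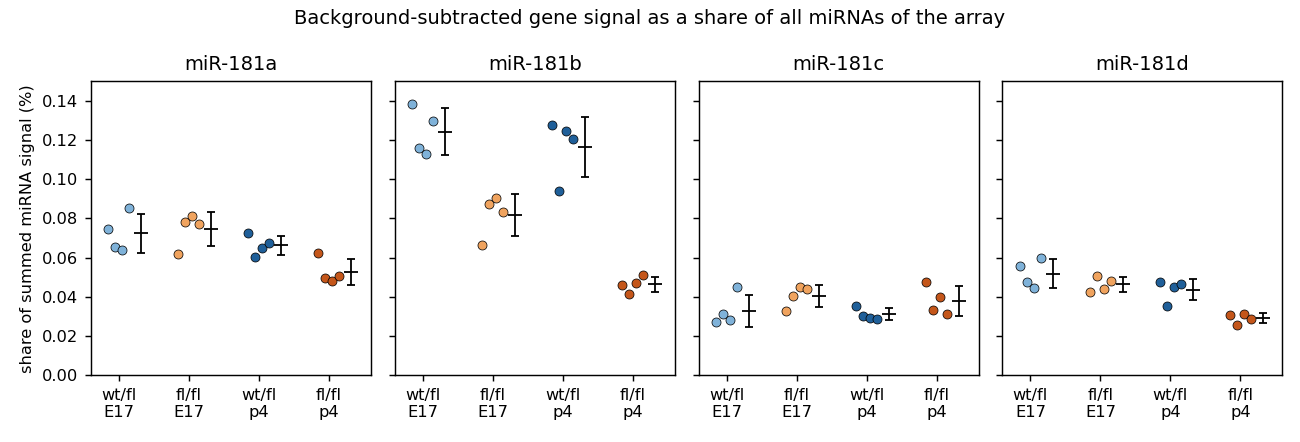
Background-subtracted signal of each miR-181 member as a percentage of the signal summed over all miRNAs of the same array (vertical axis, from 0), by genotype and age, with mean and SD of the 4 arrays of a group beside the points. For miR-181b the p4 mutants lie between 0.0416% and 0.0510% and the p4 controls between 0.0941% and 0.128%, and for miR-181c the groups overlap.

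Across the 16 arrays, the brightest probes of miR-181b and miR-181d varied together most closely of the 6 pairs (Pearson r = 0.923), followed by miR-181a and miR-181d (0.865) and miR-181a and miR-181b (0.798). miR-181c stood apart, with r = 0.370 to miR-181a, 0.137 to miR-181d and -0.0356 to miR-181b. The 2 probes of a member correlated at 0.810 to 0.962. These values describe 16 arrays that share 4 groups, and most of their spread lies between groups.

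Among the 277 other expressed miRNAs, those whose brightest probe was most like miR-181b over the 16 arrays were miR-363 (r = 0.969), miR-338-3p (0.945) and miR-107 (0.926). miR-338-3p, a miRNA of myelinating glia, was also among the nearest to miR-181d (0.910), beside miR-17* (0.936) and miR-106b (0.884). miR-181a was nearest to miR-30a (0.932), miR-324-3p (0.914) and miR-140* (0.898). miR-181c was less close to any other, with miR-101a (0.849), miR-28 (0.846) and a probe named for a viral miRNA, mcmv-miR-m01-2 (0.805), first in order.

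The passenger strands, which are cut from the same hairpins and are usually degraded, were read only for miR-181a. miR-181a-2*, specific to the chromosome 2 hairpin and carried by 4 probes, was detected on 0 of 16 arrays, and miR-181a-1*, from chromosome 1 and carried by 2 probes, on 1 array, p4 control replicate 4. No array had a probe of either well above background, so they could not show which of the loci was in use.

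Markers of the cells in the nerve were read beside these results. Of 4 miRNAs listed for Schwann cells and myelinating glia (miR-338-3p, miR-338-5p, miR-204 and miR-138), 4 were called lower in p4 mutants and 0 at E17. For this and every list below, of all expressed miRNAs 10.7% were called lower and 10.3% higher at p4, and 2.49% and 3.56% at E17. The summed background-subtracted signal of these 4 was 4951 to 5646 scanner units in p4 controls and 232 to 462 in p4 mutants, where miR-338-5p was detected on no array. As shares of the summed signal of all miRNAs these were 3.396% to 4.60% and 0.408% to 0.626%. The median log2 difference of that list at p4 was -1.49, beside 0.06 over all expressed miRNAs, and -0.18 at E17. In controls, 3 of the 4 (miR-338-3p, miR-204 and miR-138) were called higher at p4 than at E17, beside 8.19% of all expressed miRNAs. The study had picked these 3 from the same arrays for rising with age in controls and falling in p4 mutants. Their counts here are therefore no independent support.

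Because miR-181 members are abundant in lymphocytes, a list of leukocyte miRNAs was read beside them. Of its 6 miRNAs 4 were expressed, with 1 called higher in mutants at p4 (miR-223, of myeloid cells) and 1 at E17 (miR-142-3p). The list held 0.195% to 0.245% of the summed signal in p4 controls and 0.451% to 0.760% in p4 mutants, while miR-150 and miR-142-5p were detected on no array of either group. At E17 it held 0.234% to 0.312% in controls and 0.369% to 0.442% in mutants, where miR-150, miR-142-5p and miR-155 were not detected. Its summed background-subtracted signal, in contrast, overlapped between controls and mutants, at 257 to 378 and 293 to 439 scanner units at p4 and 92.9 to 188 and 144 to 195 at E17.

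Of the fibroblast and smooth muscle list, 4 of 5 expressed miRNAs (miR-199a-3p, miR-199a-5p, miR-199b* and miR-214) were called higher in mutants at both ages, and its share was 4.21% to 4.89% on p4 control arrays and 9.42% to 11.98% on p4 mutant arrays, with miR-145 detected on no array. Its summed signal overlapped between the genotypes at p4, at 5502 to 7541 scanner units in controls and 5352 to 10016 in mutants. In p4 mutants, 1 of 3 erythroid (miR-451) and 1 of 2 endothelial miRNAs (miR-126-3p) were called higher, 1 of 4 neuronal miRNAs (miR-9) was called lower, and 0 of 4 skeletal muscle miRNAs were called. The skeletal muscle list nevertheless had a median log2 difference of 0.70 at p4, beside 0.06 over all expressed miRNAs. Its shares overlapped, at 0.201% to 0.372% in p4 controls and 0.236% to 1.52% in p4 mutants. At E17, 1 of 3 erythroid miRNAs (miR-486) was called higher. The part of these shifts in the values of miR-181 was not tested.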

How the data were processed

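Total RNA of sciatic nerves was labeled with Cy3 and hybridized to 16 Agilent mouse miRNA arrays, 1 per sample. Groups follow the sample labels. The authors deposited spot intensities from Agilent Feature Extraction 10.5.1.1 (median signal, local background and background-subtracted signal), which are not normalized across arrays. Their table of quantile-normalized probe intensities, with present flags, was used here as an alternative.

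Median spot signals were put on the log2 scale, quantile normalized over 13000 non-control spots and averaged per probe, leaving out spots marked as outliers. Expressed miRNAs left 681 probes, which were fitted with limma 3.58.1 (lmFit and eBayes, R 4.3.3) on all 16 arrays, with Benjamini-Hochberg adjustment. The methods' t-test was an alternative. Shares and differences within arrays were compared by exact two-sided permutation tests. The steps were tested on simulated data. The members, the lists of cell types and the tests were chosen with earlier results of these data known. Named are all members and their passenger strands, the 3 most correlated miRNAs of each, and the marker lists. Normexp was run on median signals, because the spot intensities used here hold no mean signal. Precision is limited by 4 arrays per group. Per the study's methods, each age had 4 pairs of littermates of both genotypes. The labels do not say which arrays form a pair.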

Additional observations from a re-analysis of the deposited data

Results flagged for a closer look

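The genotype effect differed between p4 and E17 for 3 members when the difference itself was tested. It was -0.29 for miR-181a (limma, adjusted p = 0.00763), -0.36 for miR-181b (adjusted p = 0.00478) and -0.23 for miR-181d (adjusted p = 0.0406), each the effect at p4 minus that at E17 on the log2 scale with 4 arrays per group. With the upper-quartile scaling none of the 3 passed, with miR-181a at -0.18 (adjusted p = 0.394), miR-181b at -0.40 (adjusted p = 0.167) and miR-181d at -0.10 (adjusted p = 0.671), and for miR-181a and miR-181d the result also depended on other settings given above.

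Among the E17 mutants, the family's share of the summed signal was lower on replicate 1, at 0.204%, than on the other 3 arrays, at 0.253% to 0.261%. The gap was 0.857 of the group's range, above Dixon's critical value for 4 samples. In all, 36 groups of values were examined in this way, and chance alone marks about 1 in 20 of them.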

How the results depend on the processing

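At p4, 1 member was called lower with any array left out. Called lower were 3 with no normalization between arrays, 3 with the total probe signal and 3 with the adjusted p alone. With a log2 limit of 1 there were 0. Of all expressed miRNAs, no normalization called 89 lower and 1 higher, and the total probe signal 75 and 78. Shares for the adjusted p alone are given above for each comparison. At E17, 1 was called lower with the total probe signal and with the adjusted p alone, in place of 0. The total probe signal called 23 of all expressed miRNAs lower and 28 higher. From E17 to p4 in controls, where 0 were called, there were 4 higher with no normalization or the adjusted p alone. Of all expressed miRNAs, no normalization called 161 higher and 4 lower. The upper-quartile scaling called 2 members, and the brightest probes of all 4 were lower under it. It called 180 of all expressed miRNAs lower and 36 higher. The total probe signal called 3 members, beside 83 higher and 61 lower of all expressed miRNAs. In mutants there were 1, 1 and 1 with the upper-quartile scaling, the total probe signal and the adjusted p alone. Of all expressed miRNAs, the upper-quartile scaling called 62 lower and 18 higher there, and the total probe signal 49 and 56. No brightest probe of a member reached 0.5 in size in mutants under the upper-quartile scaling, the largest being -0.49 for miR-181b. That call too rests on another probe. For the difference between the effects there were 3 with no normalization, the total probe signal or the adjusted p alone, and 1 with the authors' deposited intensities. Of all expressed miRNAs, no normalization called 84 lower and 2 higher there. The total probe signal called 50 and 29, and the deposited intensities 26 and 17. Leaving out any array kept the count of called members at 0 in each comparison other than that of the genotypes at p4.

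Linear median signals turned the family's share to 0.083 at p4 and 0.12 at E17 and gave -0.49 between the ages in controls. Without 1 array the log2 difference of the share ranged from -0.71 to -0.58 at p4, -0.26 to -0.13 at E17, -0.18 to -0.05 between the ages in controls and -0.63 to -0.50 in mutants. The number of unequal pairs without 1 array was 5 at p4, 3 to 5 at E17, 0 to 2 between the ages in controls and 2 to 4 in mutants. Pairs without overlap on all arrays cannot come to overlap without 1, so the unchanged 5 at p4 adds no support. With no normalization the number of unequal pairs was 5 at p4, 4 at E17, 4 between the ages in controls and 3 in mutants.

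Directions turned as follows. The upper-quartile scaling, which moved the median of all probes by 0.56, 0.26, -0.64 and -0.39 in the 4 comparisons, gave 0.38 for miR-181c and 0.0099 for miR-181d at p4, 0.11 for miR-181d at E17, -0.19, -0.087, -0.40 and -0.36 for miR-181a to miR-181d between the ages in controls, -0.29 for miR-181c in mutants and 0.11 for miR-181c in the difference between the effects. No normalization, which moved that median by 0.25 at E17 and 0.42 in controls, gave 0.10 for miR-181d at E17, 0.050 for miR-181a between the ages in mutants, 0.051 for miR-181d minus miR-181a at p4, and 0.10 for miR-181b minus miR-181a and 0.043 for miR-181d minus miR-181c between the ages in controls. Between the ages in mutants, miR-181a was at 0.051 and miR-181c at -0.0088 with the authors' deposited intensities, and miR-181a was at 0.037 with marked spots kept. The mean over the probes of a miRNA gave -0.020 for miR-181a at E17. Without 1 array, miR-181a at E17 ranged from -0.023 to 0.028, miR-181c at p4 from -0.043 to 0.0026, and miR-181c minus miR-181b between the ages in controls from -0.052 to 0.037. Except where stated above, the cause was not tested.

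The methods name littermate pairs, but no label ties them to replicate numbers. Same-numbered arrays correlated at -0.52 to 0.09 at E17 and -0.28 to 0.46 at p4 in their deviations from the group means, over 0.1 for 0 of 4 numbers at E17 and 3 of 4 at p4, so the numbers were not taken as pairs and whether they mark the litters stays unknown. A replicate block within age gave 1 called member at p4 and 0 at E17 and changed no member's side of the threshold (miR-181b at p4 -0.71, adjusted p = 1.80e-05). A block cannot be fitted to the age comparisons. Probes near background, miR-181c above all, limit what small changes could be seen.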
